A study of Brassica rapa subsp. pekinensis with 6 samples.

Results

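The gene models described here are those with identifiers of the form Novel00008, outside the Bra gene set (called non-Bra models), that were more abundant in sterile than in fertile flower buds of Chinese cabbage (Brassica rapa subsp. pekinensis). They were chosen on their read counts. A model was taken when its mean over the sterile libraries was at least 1 raw CPM (counts scaled to a library total of 1000000) and at least 2 times its mean over the fertile libraries. The rule gave 138 of 2335 non-Bra models, in a table of 43354 gene models. All libraries came from buds of the genic male sterile line AB01, whose sterility is inherited through several alleles. They differed in the genotype label, fertile (3 libraries) or sterile (3 libraries), and the series describes the libraries of a group as biological replicates. The plants were grown in a greenhouse after vernalization. The labels say nothing of bud stage, plant age or the number of plants per library. The bud label was not checked against marker genes, because the identifiers are not paired with names.

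Male sterile plants form no functional pollen. Pollen develops in the anther beside the tapetum, the cell layer that feeds the developing spores, and a bud also holds sepals, petals, carpels and vegetative tissue of the flower stalk. A gene model outside an annotated set is commonly built from aligned reads. It can stand for a protein-coding gene that the annotation missed, a non-coding RNA, an untranslated end of a known gene or retained transposon sequence. Which of these holds for any of the 138 models is not known here, so they carry no functional names and their order below follows level, ratio, length and spread. The RefSeq gene table used for names matched none of the 138, but it matched only 1 identifier of the whole count table. The lack of a match therefore says nothing of what the models are. Their sequences were not used here.

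Libraries held 27637426 to 35564895 counts, so 3 counts corresponded to 0.0844 to 0.109 raw CPM. Within groups the libraries differed little, with a common biological coefficient of variation of 5.26%. Scaling to the library total placed all tested genes 0.31 higher in sterile buds at the median (log2), against 0.00 with TMM (trimmed mean of M values) factors. The rule used the library total, so its 2-fold threshold included that shift. With TMM-scaled CPM 91 models met the rule, and all 91 were among the 138. Of the 47 that did not, 44 fell below the ratio and the other 3 below the level alone.

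The 138 models together took 0.0486%, 0.0486% and 0.0495% of the counts of the fertile libraries and 0.134%, 0.148% and 0.138% of those of the sterile libraries. Sterile replicate 2 was the highest of the 6. Within the counts of all non-Bra models they made up 1.79% ± 0.0751 in fertile and 6.20% ± 0.243 in sterile buds (SD, n = 3 each). All non-Bra models together moved the other way, from 2.73% ± 0.147 of fertile counts to 2.26% ± 0.0835 of sterile counts. One model, Novel00008, held 33.4% of the sterile counts of the 138, and the 10 most abundant held 63.2%. Without Novel00008 the models took 0.0259% ± 0.00064 of fertile and 0.0933% ± 0.0053 of sterile counts (SD, n = 3 each). In whole buds, a change in the number of cells of a type and a change in RNA per cell cannot be told apart.

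**Figure D1:**
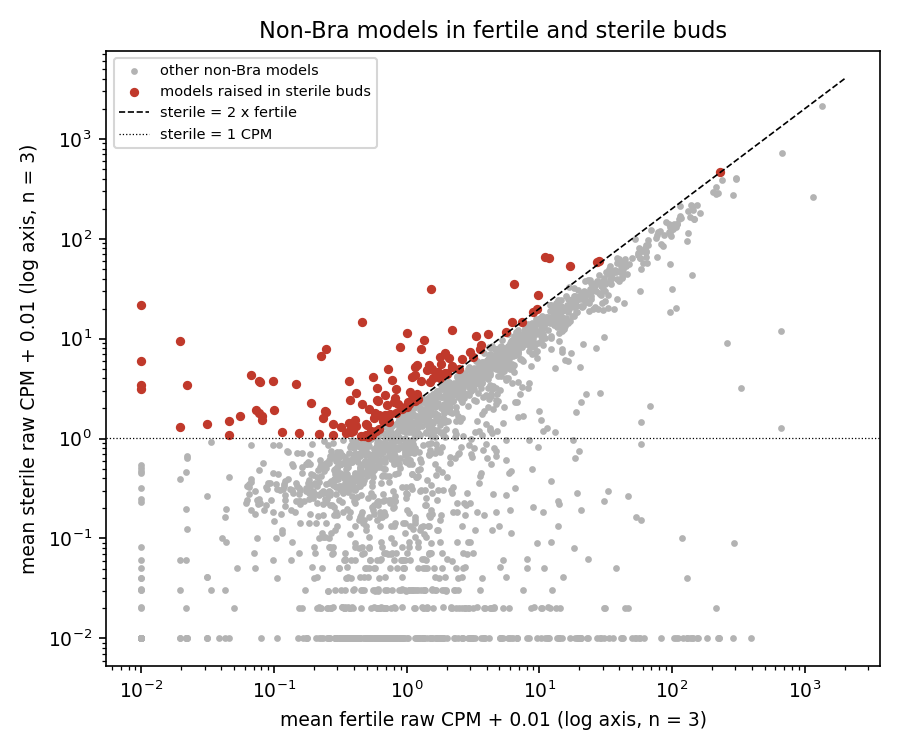
Mean raw CPM of every non-Bra model in fertile (x axis) and sterile (y axis) buds, 3 libraries each, both on log axes after adding 0.01. The 138 models raised in sterile buds (red) lie above the dashed line of a 2-fold ratio and the dotted line of 1 CPM; points at the left edge had 0 fertile counts.

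Most of the models were scarce. In sterile buds 49 stood between 1 and 2 raw CPM, 48 between 2 and 5, 21 between 5 and 10 and 20 at 10 or more. Their median was 3.02 raw CPM in sterile and 0.707 raw CPM in fertile buds. A count was found in every sterile library for all 138, and in all 6 libraries for 123. Every sterile library lay above every fertile library for all 138, where 67.9% of all gene models at 1 raw CPM or more in sterile buds showed the same; the rule chose the models on these values, so nothing is read from that count. The edgeR quasi-likelihood test had all 138 past the adjusted p threshold in the sterile direction (29.2% of all genes tested) and 93 past it with at least 2-fold (6.02% of all genes tested), and these too describe the choice. With scaling to library size alone the second count was 135 (9.84% of all genes tested), and limma on log2(RPKM + 1) called 80 of the 124 it tested (5.2% of all genes tested), or 115 of them with a pseudocount of 0.1 (8.33% of all genes tested). Among models at 1 raw CPM or more in sterile buds, the ratio of 2 was met by 12.7% of non-Bra and 9.48% of Bra models (2649 of 27574 together, 9.61%), a difference that was not tested. Over all models the rule was met by 5.91% of non-Bra and 6.12% of Bra models, so the order depends on which models are counted.

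Novel00008 was the most abundant of the set. It stood at 225.5, 233.4 and 230.2 raw CPM in fertile libraries and at 453.8, 490.7 and 456.8 in sterile libraries. The groups were far apart, yet its ratio of 2.03 was close to the lower limit of the rule. With TMM scaling its log2 fold change was 0.72 ± 0.06 (SE), below 2-fold. Among all non-Bra models it ranked 3 by sterile CPM and 10 by sterile RPKM (reads scaled to model length and library total), with 394.2 ± 17.3 RPKM (SD, n = 3) over a model of 1185 nt.

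Next in level came Novel01398 and Novel02238, which had nearly the same levels. Novel01398 had 11.5, 11.3 and 10.1 raw CPM in fertile libraries and 62.6, 73.1 and 62.9 in sterile libraries, a log2 fold change of 2.29 ± 0.07 (SE). Novel02238 had 12.05, 11.6 and 11.5 raw CPM in fertile libraries and 60.1, 81.1 and 52.2 in sterile libraries, a log2 fold change of 2.15 ± 0.11 (SE). The fertile libraries agreed closely for both, while sterile replicate 2 stood above the other sterile libraries in both, by more for Novel02238. The models differ in length, 743 and 528 nt. Whether they share near-identical sequence, which could make reads count for either, was not tested.

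A second pair in level, Novel01205 and Novel01858, behaved differently in sterile replicate 2. Novel01205 stood at 27.4, 28.3 and 28.1 raw CPM in fertile and at 64.0, 55.5 and 60.0 in sterile libraries. Novel01858 stood at 26.8, 27.5 and 27.3 raw CPM in fertile and at 57.4, 64.6 and 53.7 in sterile libraries. Sterile replicate 2 was the lowest sterile library for the first and the highest for the second. Their log2 fold changes of 0.79 ± 0.06 and 0.80 ± 0.06 (SE) were below 2-fold with TMM scaling. Both models are of ordinary length for the set, 1285 and 1336 nt.

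The other abundant models covered a wide range of ratios. Novel00509 (452 nt) had 17.2, 17.0 and 16.5 raw CPM in fertile libraries and 47.4, 51.9 and 59.8 in sterile libraries, a ratio of 3.14. Novel00340 (432 nt) had 5.97, 6.80 and 6.41 in fertile and 33.7, 35.0 and 36.1 in sterile libraries, a ratio of 5.47. Novel01576 (3320 nt) had 10.6, 8.71 and 10.04 in fertile and 26.9, 29.9 and 25.1 in sterile libraries, a ratio of 2.79. Within each of these the sterile libraries lay close together relative to the gap between the groups.

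Novel01832 (903 nt) had the largest ratio among the 9 most abundant models. Its fertile libraries stood at 0.977, 1.56 and 2.02 raw CPM and its sterile libraries at 28.8, 31.1 and 34.2, a ratio of 20.6 and a log2 fold change of 4.02 ± 0.13 (SE). The fertile libraries differed among themselves by more than those of any other model among the 9 did, in proportion to their mean.

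**Figure D2:**
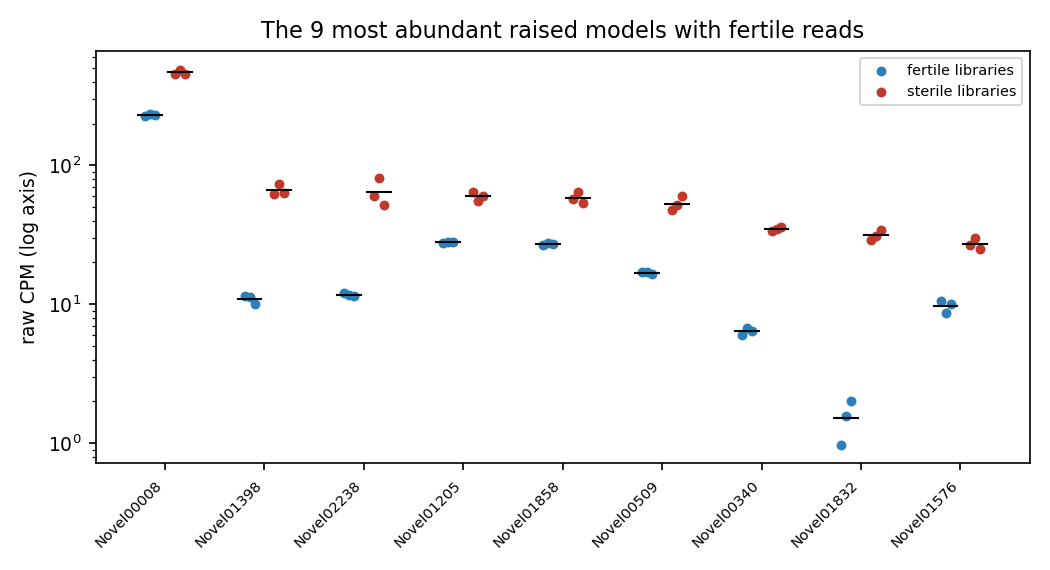
Raw CPM (log axis) of the 9 most abundant raised models that had fertile reads, one point per library, 3 fertile (blue) and 3 sterile (red), with black bars at the group means. Novel00008 stands above the rest at 467.1 raw CPM in sterile buds, and Novel01832 shows the widest gap between groups.

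No count was found in any fertile library for 4 of the 138 models. A count of 0 over the 91457958 fertile counts allows up to 0.0328 raw CPM, and folds of these models are lower bounds against that floor of 3 counts over the group. Such floors cover counting error only. Novel02088 (1334 nt) had 698, 690 and 758 counts in sterile libraries, or 21.9, 21.4 and 22.5 raw CPM, at least 668.5-fold higher. It was 10th in sterile level within the set.

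The remaining 3 without fertile reads were much scarcer. Novel01846 (1100 nt) had 160, 211 and 213 counts in sterile libraries, at least 181.7-fold higher. Novel02097 (455 nt) had 97, 107 and 134 counts, at least 105.1-fold higher. Novel00288 (1801 nt) had 96, 88 and 123 counts, at least 95.4-fold higher. All 3 were found in every sterile library, and none stood above 6.53 raw CPM in any.

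A further 6 models had 1 to 3 fertile counts in all. Novel00951 (2894 nt) had a single fertile count, in replicate 3, against 289, 283 and 355 counts in sterile libraries. The ratio of its pooled CPM was 866.7, with an exact 95% interval of 155.2 to 34269 from counting error alone. Novel01906 (927 nt) had a single fertile count, in replicate 1, against 100, 122 and 115 sterile counts, a pooled ratio of 315.1 with an interval of 56.2 to 12481. Without the library that held the single fertile count, both were at 0 in fertile buds. The other 4, Novel02240, Novel00713, Novel01579 and Novel00056, named for their small number and not by the rule for named models, had sterile means of 1.08 to 1.496 raw CPM.

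The last 4 of the 10 largest ratios belonged to models with a handful of fertile reads. Novel01955 (1602 nt) had 5 fertile counts in all and sterile levels of 4.20, 4.77 and 3.87 raw CPM, a ratio of 75.3. Its log2 fold change was 5.89, with 6.63 without fertile replicate 2 and 5.53 without fertile replicate 3. Novel01042 (914 nt) had 6 fertile counts and 2.82, 3.71 and 4.82 raw CPM in sterile libraries, a ratio of 56.7. Novel01517 (1495 nt) had 7 fertile counts, 6 of them in replicate 3. Its sterile libraries stood at 3.67, 3.47 and 3.84 raw CPM, a ratio of 53.8. Its log2 fold change was 5.21, with 7.11 without fertile replicate 3 and 4.71 without fertile replicate 1. Novel00758 (1623 nt) had 8 fertile counts and 3.67, 3.71 and 3.84 raw CPM in sterile libraries, a ratio of 42.4. The sterile libraries were nearly equal for the last 2 models and spread widely for Novel01042.

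**Figure D3:**
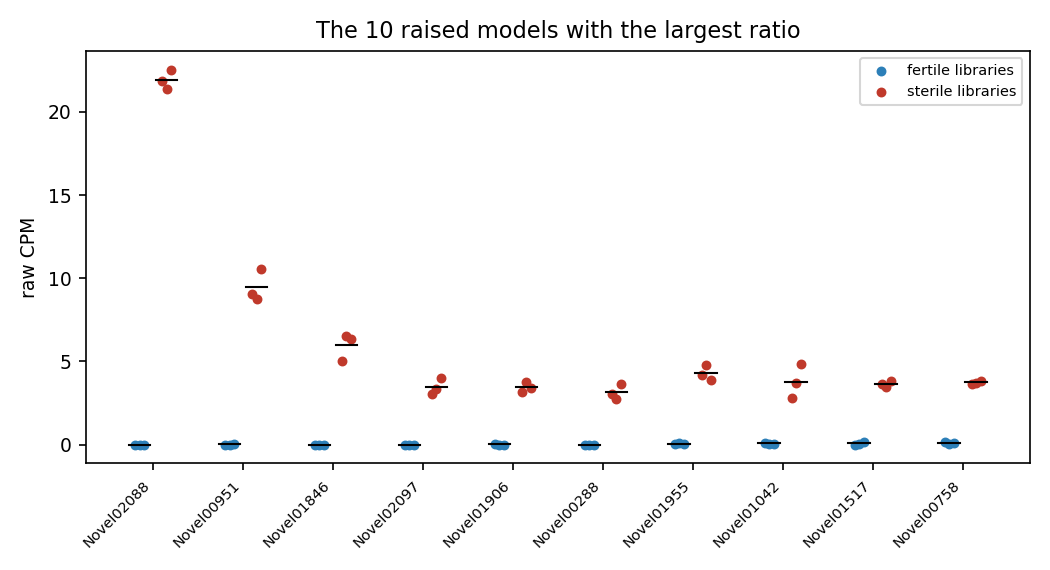
Raw CPM (linear axis) of the 10 raised models with the largest ratio of sterile to fertile mean, the fertile mean set to at least 3 counts over the group. Fertile libraries (blue) lie at or near 0, sterile libraries (red) reach 22.5 raw CPM in Novel02088 and stay below 5 in 7 of the 10; black bars are group means.

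Median sterile level varied little between classes of ratio. A ratio under 4 was found for 81 models, a ratio of 4 to 10 for 28 and a ratio of 10 or more for 29, of which 5 were at 100 or more. Fertile means under 3 counts over the group were set to that floor for these classes. Median sterile levels of the 3 classes were 2.81, 2.80 and 3.45 raw CPM, while median fertile levels were 1.09, 0.586 and 0.0667 raw CPM. The highest sterile levels of the 3 classes fell with ratio, at 467.1, 66.2 and 31.4 raw CPM. The most abundant model of the last class was Novel01832. The median log2 fold change of the 138 with TMM scaling was 1.40, and the same with models at or under the floor set to their bound. The median of all genes tested was 0.00, and that of the 1974 non-Bra models tested was -0.19.

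The edges of each threshold are given by the models nearest to them. Just inside the minimum level lay Novel00217 and Novel01569, with sterile means of 1.03 and 1.04 raw CPM. Just outside lay Novel01359 and Novel02015, with 0.964 and 0.95 raw CPM and ratios of 2.58 and 2.96. Just inside the minimum ratio lay Novel00775 (2.004, at 14.8 raw CPM in sterile buds) and Novel01134 (2.01, at 1.08). Just outside lay Novel01674 and Novel00570, with ratios of 1.99 and 1.98 and sterile means of 2.55 and 1.35 raw CPM. Novel00217 and Novel01134 rest on few reads, with 29 to 41 counts in each sterile library, and neither passed the adjusted p threshold with DESeq2. Between 2 and 2.5 in ratio lay 46 of the 138 models.

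Model length, which the rule did not use, was recovered for all 138 from their counts and RPKM. It ran from 172 nt (Novel00186) to 6404 nt (Novel01535), with a median of 946.5 nt and quartiles of 574.25 and 1355 nt. The 946 other non-Bra models at 1 raw CPM or more in sterile buds had a median of 1031 nt with quartiles of 707.5 and 1538 nt, and the 419 non-Bra models at least 2-fold lower in sterile buds had one of 863 nt. The distributions overlapped widely and their difference was not tested. Lengths were multiples of 3 in 37 of 138 models (26.8%), against 34.4% of those 946 and 100% of Bra models raised by the same rule. The Bra lengths are thus coding lengths, while those of the raised non-Bra models need not be.

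Per unit of length the order of the models changed. Novel00008 remained the highest, followed by the short models Novel02238 at 122.1 ± 28.3 RPKM and Novel00509 at 117.4 ± 13.9 RPKM (SD, n = 3 each). The spread of Novel02238 exceeded the gap between these 2, so their order is not resolved. In the sterile libraries 21 models stood at 10 RPKM or more and 11 below 1 RPKM. The 22 models under 500 nt had a median of 7.63 RPKM and the 13 models of 2000 nt or more one of 1.23 RPKM, while their median levels in raw CPM were 2.30 and 2.92. As RPKM divides by length and the rule sets a minimum of 1 raw CPM, this contrast follows largely from the length classes. The shortest model, Novel00186, with 58, 53 and 65 counts in sterile libraries, reached 10.5 ± 0.86 RPKM, and the longest, Novel01535, with 270, 308 and 263 counts, reached 1.34 ± 0.135 RPKM (SD, n = 3 each).

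The 138 models were spread over the whole range of identifier numbers. In 5 equal blocks of 467 non-Bra models each they numbered 30, 24, 24, 33 and 27. The sources used here do not say whether the numbers follow genome order. Of the 138, 15 (10.9%) carried a number next to that of another model of the set, in 1 run of 3 and 6 pairs. The set is 5.91% of the non-Bra models and a number has neighbours on both sides, so a share of this size needs no grouping. Of the 419 non-Bra models at least 2-fold lower, 157 (37.5%) were next to another lowered one. The lowered set is larger, so the shares cannot be compared directly.

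The run of 3 joined Novel00887, Novel00888 and Novel00889 (1003, 1044 and 1290 nt). Novel00888 had 8.10, 8.64 and 10.04 raw CPM in fertile and 16.4, 21.2 and 17.6 in sterile libraries. Its neighbours were much scarcer, with sterile means of 2.04 and 2.17 raw CPM and ratios of 2.14 and 3.12. Only the pairs lowest in number are given, and they do not stand for the others. Among these pairs, Novel00288, without fertile reads, stood beside Novel00289, which had 6 fertile counts and a sterile mean of 1.79 raw CPM. In the pair of Novel00238 and Novel00239 the ratios were 2.87 and 21.6, with sterile means of 1.38 and 1.52 raw CPM. The second rests on 7 fertile counts. Its log2 fold change of 3.95 was 4.98 without fertile replicate 3 and 3.45 without fertile replicate 1.

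None of the 10 models next in number to the 5 most abundant ones met the rule, and their directions were mixed. Novel00007, before Novel00008, stood at 55.1 raw CPM in fertile and 69.5 in sterile buds, and Novel00009, after it, at 4.47 and 6.26. Novel01397 and Novel01399, on either side of Novel01398, stood at 30.4 and 5.61 raw CPM in fertile and at 36.0 and 3.87 in sterile buds. Novel02237, before Novel02238, had 0.357 raw CPM in fertile and 0.0099 in sterile buds, and Novel02239, after it, 3.20 and 2.40. Novel01204 and Novel01206, on either side of Novel01205, stood at 0.151 and 2.22 raw CPM in fertile and at 0.447 and 2.73 in sterile buds, so Novel01204 met the ratio but not the level. Novel01857 and Novel01859, on either side of Novel01858, stood at 7.37 and 1.30 raw CPM in fertile and at 3.31 and 2.44 in sterile buds.

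The spread between libraries of one group was not used by the rule. Over the 3 sterile libraries the median coefficient of variation (CV, on TMM-scaled CPM) of the 138 models was 12.4%, where counting alone at their depth gives a median of 10.1%. Variance was under 3 times that of counting for 96 models and at least 10 times for 12. The median ratio of variance to counting variance was 1.79, against 1.70 for the 946 other non-Bra models at 1 raw CPM or more and 1.64 for Bra models at that level. For Bra models raised by the same rule it was 1.41. Median CVs of these 3 groups were 9.39%, 5.82% and 7.95%, at median sterile levels of 5.88, 16.2 and 5.58 raw CPM. The 138 stood at 3.02 raw CPM, and both measures depend on depth, so the groups are not directly comparable. In fertile libraries, where counts are lower, the median CV was 17.6% over the 134 models with fertile reads, against 21.3% from counting. The counting CV is 1 over the root of the mean count. A CV from 3 libraries tends to lie below it even with counting error alone, so nothing is read from the lower fertile value. In sterile libraries the same makes the excess over counting look smaller. The highest sterile library was at least 1.5 times the lowest in 23 models and at least 2 times in 2.

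The most variable models in sterile buds differed in which library stood apart. Novel01590 had 3.14, 6.72 and 4.05 raw CPM in sterile libraries, a CV of 39.1% where counting gives 8.14%. Novel01599 (233 nt) had 1.25, 2.85 and 2.71, a CV of 38.6% where counting gives 11.6%. Novel01593 had 0.878, 1.49 and 0.833, a CV of 33.0% where counting gives 16.98%, and it did not pass the adjusted p threshold with DESeq2. Sterile replicate 2 was the highest in all 3, and for Novel01599 replicate 1 was the one apart. The least variable were Novel01863, at 6.55, 6.62 and 6.51 raw CPM, and Novel00653, at 3.67, 3.81 and 3.78, both closer together than counting error would give on average.

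**Figure D4:**
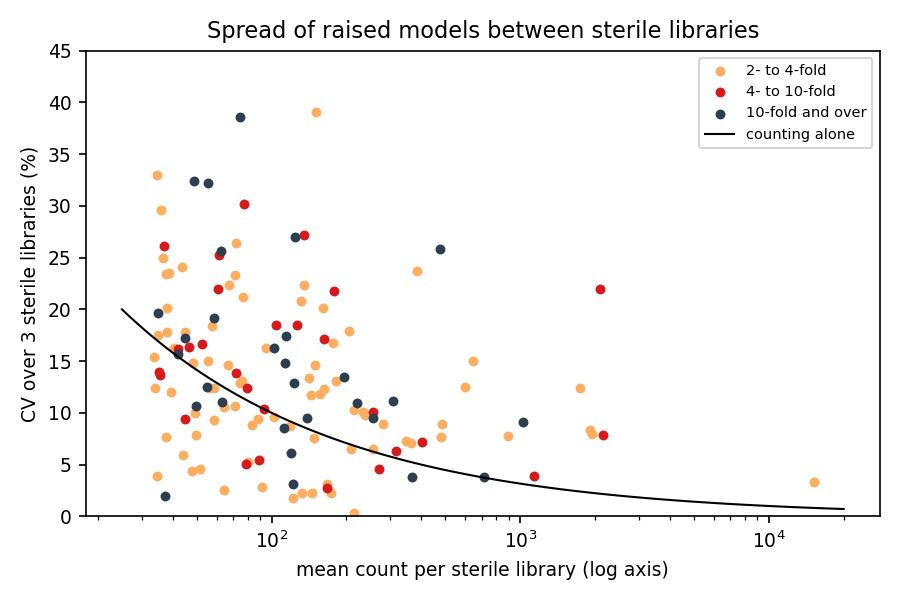
CV over the 3 sterile libraries (y axis, percent, TMM-scaled CPM) against mean count per sterile library (log axis) for the 138 raised models, coloured by class of ratio, with the CV that counting alone gives (line). The models scatter around the line at low counts and nearly all lie above it at high counts; Novel02238 stands highest among those over 1000 counts, at 22.0%.

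Sterile replicate 2 was the highest sterile library for 74 of the 138 models (53.6%), replicate 3 for 42 and replicate 1 for 22, on TMM-scaled CPM. The same held for 52.7% of the 946 other non-Bra models at 1 raw CPM or more, but for 31.0% of Bra models at that level and 33.0% of the Bra models raised by the same rule. Within the set, replicate 2 was the highest for 64.2% of models with a ratio under 4 and 53.6% of those from 4 to 10. At a ratio of 10 or more it was the highest for 24.1% (7 of 29). These differences were not tested, since models of one library share that library. Sterile replicate 2 is part of the sterile mean that chose the models raised by the rule, so for these a high value in it could help a model in.

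The median of replicate 2 over the mean of replicates 1 and 3 was 1.07 in the 138 models, 1.06 in the 946 other non-Bra models and 0.992 in Bra models. Within the 138 it was 1.13 at ratios under 4, 1.08 at ratios of 4 to 10 and 0.925 at ratios of 10 or more. Without sterile replicate 2 the rule gave 121 models, of which 120 were among the 138. The other 18 dropped below one of the thresholds. Among models with fertile reads, fertile replicates 1, 2 and 3 were the highest for 46, 36 and 52.

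**Figure D5:**
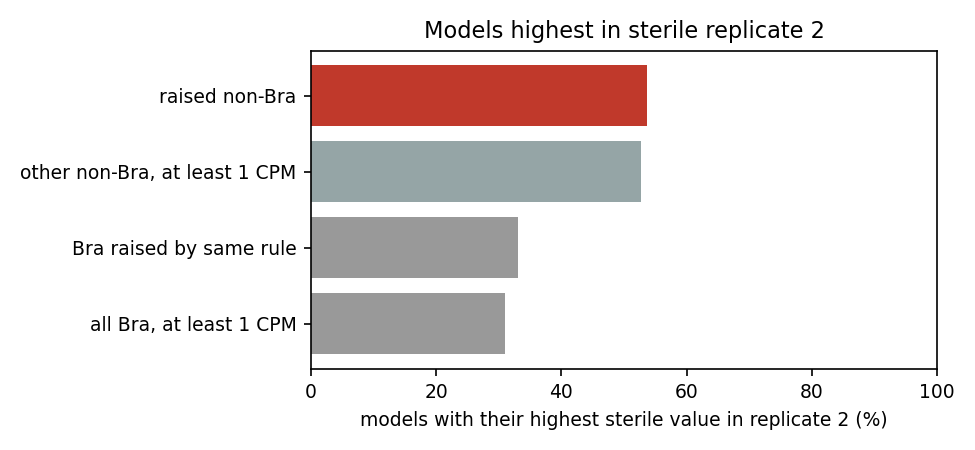
Percent of models whose highest sterile value (TMM-scaled CPM) was in replicate 2, for the 138 raised models and for other non-Bra and Bra models. Bars start at 0; the raised models stand at 53.6% and the other non-Bra models at 52.7%, beside 33.0% of Bra models raised by the same rule and 31.0% of all Bra models at 1 CPM or more.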

How the data were processed

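RNA from fertile and sterile buds was sequenced in 6 libraries. The deposited tables hold raw read counts per gene model and RPKM, per the file headers, with 12 columns used. The submitters' processing notes list Bowtie2 2.0.6 and TopHat2 2.0.9. Neither the genome build and annotation, the counting tool, its use of strand nor the making of non-Bra models is given in the sources consulted. Overlapping, antisense or near-identical models may therefore share reads. Model length is count divided by RPKM and library total. The RefSeq table (CAAS_Brap_v3.01) served for names and matched 1 identifier of the count table, a Bra one; the planned marker lists were not used.

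Raw CPM divides by the library total. Counts of all genes were tested in R 4.3.3 with edgeR 4.0.16 (filterByExpr, TMM, glmQLFTest, Benjamini-Hochberg adjusted p under 0.05, 33150 genes), without a replicate block; limma 3.58.1 and DESeq2 1.42.0 were alternatives. The tests were checked on simulated data. Standard errors are approximate, log2 fold change over the root of the F statistic. Named models were those with 0 fertile counts, the 10 highest in level and in ratio and the extremes of length, spread and RPKM. Those at the rule's edges and those in 3 runs of consecutive numbers, longest and then lowest in number first, were also named. The members and lists were chosen with earlier results of these data known. p-values weigh the difference between the groups against the spread of libraries within them, and the number of plants behind each library is not given.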

Additional observations from a re-analysis of the deposited data

How the results depend on the processing

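The 138 models became 91 with TMM or RLE factors, 89 with a minimum of 2 CPM and 79 with a ratio of at least 3. They became 198 with a minimum of 0.5 CPM, 139 with group medians, 114 with upper-quartile factors and 92 with the lowest sterile library at least 2 times the highest fertile one. Omitting single libraries gave 121 to 151 models, 90 to 99 of the 138 called at least 2-fold higher by edgeR, a median log2 fold change of 1.40 to 1.47, and 0.136% to 0.143% of sterile counts. The calls numbered 80 with limma on log2(RPKM + 1), which tested 124 of the 138 and understates changes of low models, 115 with a pseudocount of 0.1 on the same models, and 135 with library size alone, against 93. The median change of the models (log2) was 1.70 with scaling by library size alone and 1.58 with factors from the upper quartile. The share of sterile counts was 0.140% of all counts, 6.20% of non-Bra counts and 0.155% without the 100 most abundant genes. Median length was 1003 nt for models of at least 2 CPM. The median CV was 12.7% on raw CPM and 9.79% for the 69 models over 100 counts. A replicate block gave 93 calls and changed no call of a named model; deviations from group means of libraries with one number correlated at 0.021, -0.037 and 0.097, and were not taken as pairs. Of the 36 named models, Novel00217, Novel01134 and Novel01593 lost the adjusted p threshold with DESeq2 (0.098, 0.11 and 0.060) and without 1 or more single libraries; the others kept it in the alternatives run for named models (scalings, DESeq2, block and single libraries left out). Depth limits ratios of models with few fertile reads: without the fertile library holding most of them, the log2 fold change moved from 9.05 to 11.08 for Novel00951, 7.59 to 9.69 for Novel01906, 5.21 to 7.11 for Novel01517, 3.95 to 4.98 for Novel00239 and 5.89 to 6.63 for Novel01955. The first 2 then have no fertile count, and their fitted values depend on the prior count. Omitting either of the other fertile libraries lowered these changes instead. The lowest values were 8.64 for Novel00951, 7.03 for Novel01906, 4.71 for Novel01517, 3.45 for Novel00239 and 5.53 for Novel01955.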
